A study of Mus musculus with 6 samples.

Results

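The hypoxia and glycolysis genes described here are 33 genes chosen by name, of 16557 genes found in the count tables of 6 murine rhabdoid tumors (RT). RT are aggressive tumors that arise after loss of *Smarcb1*, which encodes a constant component of SWI/SNF, a complex that remodels chromatin. By role, 7 members sense oxygen or act on transcription, 5 take up glucose or start glycolysis, 7 carry out its later steps, 3 handle lactate or the entry of pyruvate into mitochondria, 5 act on or in mitochondria, 4 are secreted or work in the endoplasmic reticulum and 2 respond to growth and stress. All 33 were listed in the tables of 5 tumors and 32 in that of MYC spinal 2, where *P4ha2* was missing and counted as 0.

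When oxygen falls, prolyl hydroxylases of the Egln family stop marking the transcription factor subunit Hif1a for degradation, and the stabilized factor binds short DNA motifs in its target genes. Among its known targets are glucose transporters, most glycolytic enzymes, the exporter of lactate and the kinase that shuts pyruvate out of mitochondria, so that a cell makes more of its ATP from glucose without oxygen. Other targets remove mitochondria, recruit blood vessels or feed back on the response itself. Tumor cells and activated myeloid cells also run glycolysis in the presence of oxygen.

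All 6 tumors came from mice with floxed *Smarcb1* (Smarcb1 fl/fl), a tamoxifen-inducible Cre recombinase and a single dose of 50 mg/kg tamoxifen to the dam at day 6.5 after conception. The MYC spinal tumors 1, 2 and 3, from mice aged 19, 26 and 17 weeks, carried the Rosa26-cre allele, which is active in every tissue. Of the extracranial rhabdoid tumors (eRT), eRT 1 (gland, 17 weeks) also carried Rosa26-cre, whereas eRT 2 (jaw, 29 weeks) and eRT 3 (shoulder, 22 weeks) carried Sox2-cre, which is active in *Sox2*-positive cells of the embryo. Subtype and mouse model are therefore partly confounded, and each tumor is 1 library from 1 animal.

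The members share a feature of their promoters, a motif of the kind that Hif1a binds. Many of them are known targets of this factor, so the share describes the list and is no independent support for it. In the 250 bases before the RefSeq start (GRCm38.p6), 29 of 31 members with an entry (93.5%) held the core of a hypoxia response element, here ACGTG or GCGTG, read on the other strand as CACGT or CACGC, with overlapping matches counted as 1 site, against 11226 of 27025 genes (41.5%). With 2 or more sites there were 21 members (67.7%) and 15.2% of all genes. Over single promoters the shares were 37 of 46 for members (80.4%) and 38.6% for all. Promoters of members also held more CpG, a median of 19 against 6, and the motif itself contains one. *Gpi1* and *Tpi1* had no match, and *Bnip3l* and *Ndrg1* were not in the table. The 6 sequences shown belong to the 4 members with the smallest adjusted p between tumor and immune-like cells and to *Ldha* and *Bnip3*, described further on. Capitals mark the matches, and a palindrome such as the E-box in *Ldha* matches on both strands. The windows lie at chr16:36071562-36071811 on the minus strand for *Fam162a* (6 sites), chr7:110627407-110627656 on the plus strand for *Adm* (2 sites), chr11:120948817-120949066 on the plus strand for *Slc16a3* (2 sites), chr8:57487861-57488110 on the minus strand for *Sap30* (2 sites), chr7:138909507-138909756 on the minus strand for *Bnip3* (4 sites) and chr7:46845554-46845803 on the plus strand for *Ldha* (3 sites). A match describes the letters and does not show that a factor binds there.
Fam162a: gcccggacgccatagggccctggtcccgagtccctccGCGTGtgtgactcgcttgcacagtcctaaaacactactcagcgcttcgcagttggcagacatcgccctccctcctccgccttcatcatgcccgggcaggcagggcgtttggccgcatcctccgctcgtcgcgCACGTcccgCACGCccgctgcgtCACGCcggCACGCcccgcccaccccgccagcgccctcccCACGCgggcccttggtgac
Adm: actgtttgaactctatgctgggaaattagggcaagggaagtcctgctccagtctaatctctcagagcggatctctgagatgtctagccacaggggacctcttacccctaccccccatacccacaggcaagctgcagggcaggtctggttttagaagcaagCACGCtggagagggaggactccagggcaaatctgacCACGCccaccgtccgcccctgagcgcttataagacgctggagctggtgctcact
Slc16a3: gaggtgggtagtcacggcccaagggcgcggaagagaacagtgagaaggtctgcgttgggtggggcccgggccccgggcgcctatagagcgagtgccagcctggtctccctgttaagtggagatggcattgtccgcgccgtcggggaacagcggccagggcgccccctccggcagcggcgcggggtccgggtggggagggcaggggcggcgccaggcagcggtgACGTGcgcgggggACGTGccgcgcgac
Sap30: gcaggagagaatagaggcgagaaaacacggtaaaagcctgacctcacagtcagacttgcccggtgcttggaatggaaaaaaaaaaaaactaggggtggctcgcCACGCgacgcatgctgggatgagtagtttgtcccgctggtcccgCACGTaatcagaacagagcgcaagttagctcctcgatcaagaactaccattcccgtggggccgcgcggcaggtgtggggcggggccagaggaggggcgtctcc
Bnip3: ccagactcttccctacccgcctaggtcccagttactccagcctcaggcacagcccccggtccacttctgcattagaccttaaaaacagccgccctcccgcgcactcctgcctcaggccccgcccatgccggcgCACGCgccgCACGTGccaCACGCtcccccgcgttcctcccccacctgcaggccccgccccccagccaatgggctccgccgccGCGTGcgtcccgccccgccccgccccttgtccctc
Ldha: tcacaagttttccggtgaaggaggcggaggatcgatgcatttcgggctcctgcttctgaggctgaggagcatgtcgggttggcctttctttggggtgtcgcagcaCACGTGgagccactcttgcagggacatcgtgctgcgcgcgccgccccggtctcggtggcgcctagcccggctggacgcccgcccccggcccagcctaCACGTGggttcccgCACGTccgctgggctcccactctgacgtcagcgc

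The 6 libraries held 22163 cells after filtering, 1469 to 6740 a tumor, with 3841706 to 26184224 unique molecular identifiers (UMIs) a tumor and a median of 916 to 5211 UMIs per cell. Tumor cells were taken as the cells of 6 clusters whose *Smarcb1* UMIs fell under 0.25 of what the immune-like cells would predict, and these clusters held 38 UMIs where 592.7 were expected. They numbered 104, 16 and 1665 cells in MYC spinal 1, 2 and 3 and 68, 198 and 602 cells in eRT 1, 2 and 3, 2653 in all. Another 16059 cells lay in immune-like clusters, and 82 fibroblast-like cells and 3369 cells in clusters without a name entered no comparison. The tumor cells of MYC spinal 2 stood apart, since their sum of 45279 UMIs made 1 UMI worth 22.1 CPM (UMIs scaled to a total of 1000000) and a gene without a UMI compatible with up to 66.3 CPM. Neutrophil markers reached 17290 CPM in this sum and 71.3 to 932.5 CPM in the tumor cells of the other 5 tumors, with 126200 CPM among its immune-like cells. Macrophage markers stood at 0 to 709.4 CPM in tumor cells and 125.2 to 16490 CPM in immune-like cells, and epithelial markers reached 1603 CPM in the tumor cells of eRT 1. Cells were named by running numbers, so that shared barcodes could not be counted.

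The first comparison asked which of these genes differ between the *Smarcb1*-negative tumor cells and the immune cells around them. UMIs were summed per tumor over each kind of cell, and the sums were compared within the 6 animals by the quasi-likelihood test of edgeR, with p adjusted over all genes after Benjamini and Hochberg. All 33 members passed the filter on low counts. Of these, 2 were higher and 6 were lower in tumor cells, while 15.5% of the 12053 genes tested were called higher and 16.7% lower (32.2% in either direction). The share of members called, 8 of 33, was thus not above that of all genes, and their median log2 fold change was −0.12, against −0.05 over all genes tested. Without library scaling factors the fold changes of all genes moved by a median of 0.25 and the share of higher genes among those called from 48.1% to 59.4%. The members with a positive fold change then numbered 20 of 33 in place of 12. The median of the members was 0.16, against 0.20 over all genes tested. With MYC spinal 2 left out, the calls among members were 2 higher and 4 lower, and the share of all genes is not given for that setting. Fold changes are given on the log2 scale with their standard error.

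*Fam162a*, which encodes a mitochondrial protein induced by hypoxia, was higher in tumor cells. The MYC spinal tumors 1, 2 and 3 held 199.5, 530 and 472 CPM in their tumor cells, and eRT 1, 2 and 3 held 596, 190.1 and 212 CPM. The immune-like cells held 75.4, 65.8 and 189 CPM in the MYC spinal tumors and 138, 138 and 90.3 CPM in the eRT. The lowest tumor cell level, in eRT 2, lay just above the highest immune-like level, in MYC spinal 3, so the groups did not overlap. The log2 fold change was 1.27 (standard error 0.26, adjusted p = 0.0035), and tumor cells were higher in 6 of 6 tumors.

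*Adm*, which encodes the vasodilator peptide adrenomedullin, was also higher in tumor cells. The tumor cells held 83.7, 0 and 27.5 CPM in the MYC spinal tumors and 51.3, 8.12 and 0.711 CPM in the eRT. In immune-like cells it lay between 0 and 4.95 CPM, with a median of 1.26 CPM. Tumor cells were above immune-like cells in 5 of 6 tumors, MYC spinal 2 being without a UMI, and in eRT 3 the level of tumor cells lay within the immune-like range. The log2 fold change was 3.44 (standard error 0.76, adjusted p = 0.0054).

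Most of the called members were lower in tumor cells than in immune-like cells. *Slc16a3*, which exports lactate, stood at 3.56 to 68.4 CPM in tumor cells (median 19.1) and at 49.7 to 194 CPM in immune-like cells (median 56.9). It was lower in tumor cells in 6 of 6 tumors, with a log2 fold change of −2.22 (standard error 0.41, adjusted p = 0.0019). In MYC spinal 2 the difference was narrow, 44.2 against 49.7 CPM, and its tumor cells held 2 UMIs. *Sap30*, which encodes a subunit of the Sin3 histone deacetylase complex, stood at 0 to 61.6 CPM in tumor cells (median 36.3) and at 63.5 to 188 CPM in immune-like cells (median 95.7). The 0 is that of MYC spinal 2, where it allows up to 66.3 CPM, which lies above the lowest immune-like value. The log2 fold change was −1.96 (standard error 0.38, adjusted p = 0.0024).

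The transcript of the oxygen-sensitive factor itself was among those that were lower in tumor cells. *Hif1a* stood at 21.0 to 110.4 CPM in tumor cells (median 29.2) and at 33.2 to 288 CPM in immune-like cells (median 64.5), with a log2 fold change of −1.56 (standard error 0.40, adjusted p = 0.012). The highest tumor cell value, in MYC spinal 2, rested on 16 cells, and in the other 5 tumors *Hif1a* was lower in tumor cells. *Egln3*, a prolyl hydroxylase that is induced by hypoxia and acts back on Hif1a, had a median of 1.89 CPM in tumor cells (0 to 44.2) and of 9.51 CPM in immune-like cells (0.840 to 54.1). Its log2 fold change was −2.36 (standard error 0.68, adjusted p = 0.022), with lower values in 5 of 6 tumors. Because messenger RNA says nothing about hydroxylation or stability of the protein, these levels do not measure the activity of the factor.

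In glucose use, 2 enzymes of the first steps were lower in tumor cells. *Pfkp*, the platelet form of phosphofructokinase, stood at 0 to 29.9 CPM (median 12) against 13 to 94.9 CPM (median 47.0) (log2 fold change −1.75, standard error 0.52, adjusted p = 0.025). It was lower in the 5 tumors other than MYC spinal 2, where 0 UMIs allow up to 66.3 CPM and immune-like cells held 20.5 CPM. *Hk2*, the inducible hexokinase, stood at 0 to 44.2 CPM (median 11.8) against 5.46 to 219 CPM (median 23.8) and was lower in 4 of 6 (log2 fold change −1.95, standard error 0.63, adjusted p = 0.036). Its highest immune-like level was that of eRT 2. Both calls were lost without MYC spinal 2 (adjusted p = 0.053 for *Pfkp* and 0.059 for *Hk2*), and without eRT 2 these and that of *Egln3* were lost (adjusted p = 0.080, 0.13 and 0.11). The call of *Hk2* was also lost without eRT 1 (adjusted p = 0.055), without eRT 3 (0.12) and without library scaling factors (0.072).

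The glucose transporter *Slc2a1* was not called. Tumor cells held 16.0, 0 and 171.5 CPM in the MYC spinal tumors, while the eRT reached 203, 104 and 58.7 CPM, and in immune-like cells it ranged from 11.1 to 117.5 CPM (log2 fold change 0.75, standard error 0.48, adjusted p = 0.27). Tumor cells were higher in 3 tumors and lower in 2, and in MYC spinal 2 the 0 allows a level above that of immune-like cells. None of the 7 enzymes of the later steps of glycolysis (*Aldoa*, *Tpi1*, *Gapdh*, *Pgk1*, *Pgam1*, *Eno1*, *Pkm*) was called, with log2 fold changes from −0.48 for *Eno1* to 0.17 for *Tpi1*. Several of these genes have processed pseudogenes or, as *Eno1*, a near-identical copy, and their counts are uncertain to that extent. The mitophagy receptors *Bnip3* and *Bnip3l*, the angiogenic factor *Vegfa* and the growth regulators *Ddit4* and *Ndrg1* were not called either. The remaining 12 members without a call lay between −1.03 for *Pdk1*, which holds pyruvate out of mitochondria (adjusted p = 0.11), and 1.71 for *Ak4*, a mitochondrial adenylate kinase (adjusted p = 0.10).

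**Figure D1:**
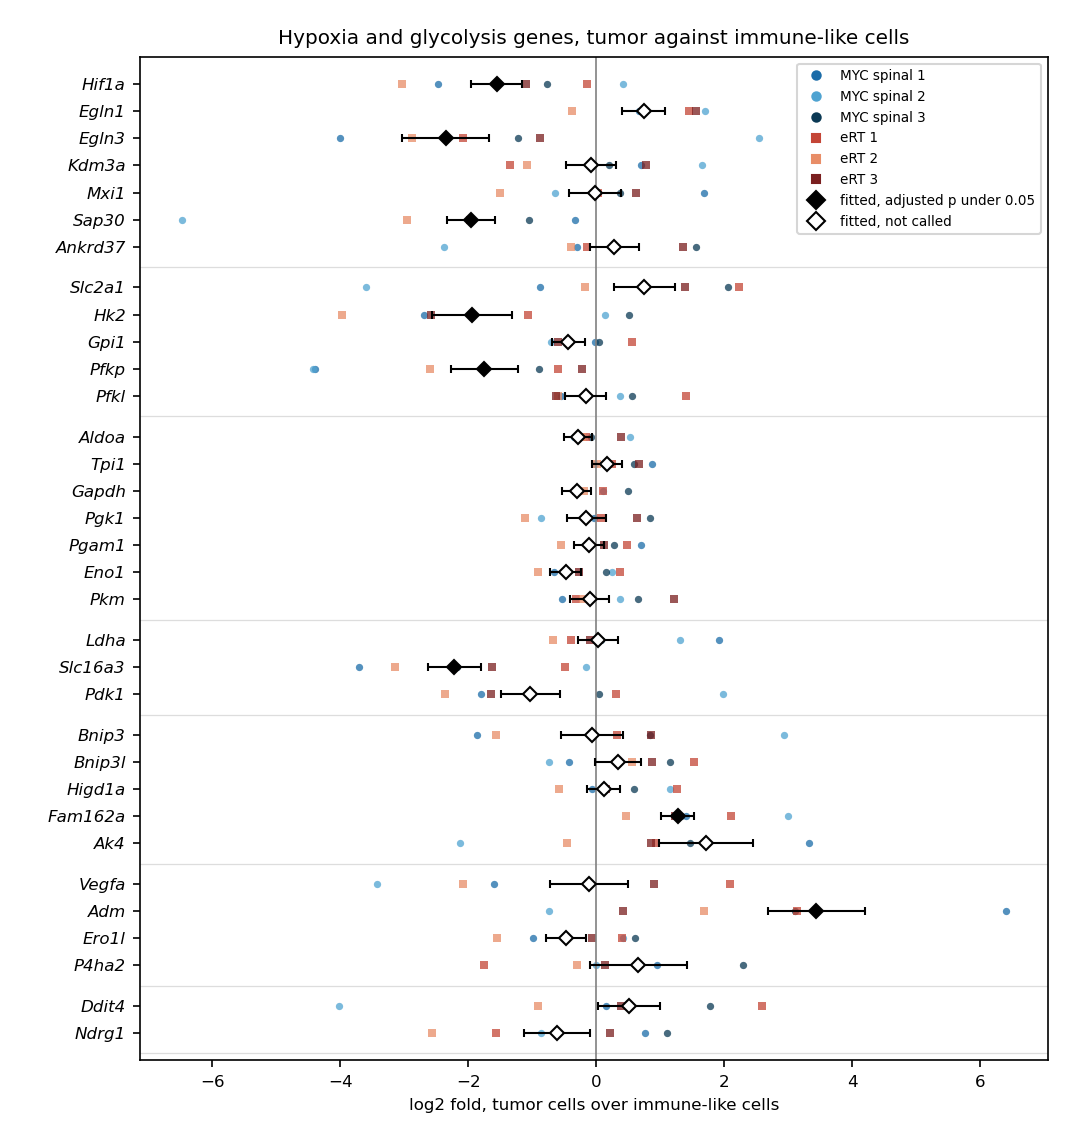
For each of the 33 genes, grouped by role from oxygen sensing at the top to growth and stress at the bottom, the x axis gives the log2 fold of tumor cells over immune-like cells. Diamonds are the fitted values with 1 standard error, filled where the adjusted p was under 0.05, and circles (MYC spinal) and squares (eRT) are the single tumors, as log2 ratios of CPM + 1 without library scaling factors. *Fam162a* and *Adm* are filled on the right and 6 genes on the left, and the 7 enzymes of later glycolysis cluster around 0.

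Immune-like cells were not the same mixture in every tumor. Macrophage-like cells made up 2675 of 3095 immune-like cells in eRT 3, T-like cells 848 of 1299 in MYC spinal 1, and monocyte-like and neutrophil-like cells 1932 and 1340 of 5191 in MYC spinal 2. Osteoclast-like cells were 950 of 3077 in MYC spinal 3 and 574 of 1714 in eRT 1, where they held 4656725 of 9871102 and 4386967 of 9285489 immune-like UMIs. Against macrophage-like cells alone, *Fam162a* and *Adm* stayed higher and *Slc16a3*, *Sap30*, *Hif1a* and *Hk2* lower, whereas *Egln3* and *Pfkp* were no longer called (adjusted p = 0.084 and 0.12). In this comparison *Egln1*, the main prolyl hydroxylase for Hif1a, and *Ddit4*, an inhibitor of mTOR signaling, were higher in tumor cells (log2 fold change 1.11 and 1.36, adjusted p = 0.017 and 0.048).

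Among the other genes of the pathway, 45 of 55 on a separate list could be tested, and 8 were higher and 7 lower in tumor cells. These counts lie near the shares of all 12053 genes tested, of which 15.5% were called higher and 16.7% lower. The higher ones included enzymes that modify collagen, *Lox* (log2 fold change 6.08) and *Plod2* (4.41), as well as the lipase inhibitor *Angptl4* (4.13). Also among them were the respiratory chain modulator *Ndufa4l2* (4.25) and the neuronal enolase *Eno2* (2.93). *Angptl4* was higher in 5 of 6 tumors and lower in MYC spinal 1. In tumor cells *Ndufa4l2* was at 0 in 4 tumors and at most 14.2 CPM, and *Eno2* at 0 in 2 tumors and at most 10.7 CPM. *Lox* stood at 12.6 to 323 CPM in tumor cells and at most at 2.63 CPM in immune-like cells, and *Plod2* reached 38.5 against 2.05 CPM. Unlike *Slc16a3* and *Pfkp*, another lactate transporter, *Slc16a1* (1.88), and another phosphofructokinase, *Pfkm* (1.95), were higher in tumor cells. The enolase *Eno3* (1.95) was higher as well. Lower in tumor cells were the myeloid hexokinase *Hk3* (−5.04), carbonic anhydrase *Car9* (−3.21), the HIF antagonist *Cited2* (−2.58), *Pfkfb4*, which makes an activator of phosphofructokinase (−1.88), and the transferrin receptor *Tfrc* (−1.76). *Car9* reached at most 2.14 CPM in tumor cells and 8.94 CPM in immune-like cells. Of 21 genes of the respiratory chain, 0 were higher and 3 lower (*Uqcrfs1*, *Cox5a* and *Atp5c1*), with a median log2 fold change of −0.53. Their summed level was 9816, 7310 and 8779 CPM in tumor cells of the MYC spinal tumors, and 8284, 6868 and 7158 CPM in the eRT. In immune-like cells it was 7191, 7228 and 18020 CPM and 15310, 5822 and 7763 CPM, so that tumor cells were higher in 3 tumors and far lower in MYC spinal 3 and eRT 1. The osteoclast-like cells of these 2 tumors held 27590 and 20910 CPM and their macrophage-like cells 9876 and 10690 CPM.

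Within the immune cells, the second comparison set neutrophil-like against macrophage-like cells in the 3 tumors with at least 10 cells of both (MYC spinal 2 and 3 and eRT 2). Of 28 members tested, 3 were higher in neutrophil-like cells and 0 lower, while 5.94% of the 5408 genes tested were called higher and 1.74% lower (7.67% in all). *Ero1l*, which oxidizes protein disulfide isomerase during protein folding, stood at 77.4, 120.9 and 164 CPM in neutrophil-like cells of MYC spinal 2 and 3 and eRT 2 and at 13, 35.3 and 57.9 CPM in macrophage-like cells. The groups did not overlap, and the log2 fold change was 2.51 (standard error 0.43, adjusted p = 0.0071). *Egln3* stood at 4.40, 20.6 and 75.7 CPM against 0, 3.99 and 21.2 CPM, so that both kinds were highest in eRT 2 (log2 fold change 2.83, standard error 0.57, adjusted p = 0.015). *Mxi1*, a partner of Max that opposes Myc, stood at 54.7, 36.0 and 29.4 CPM against 0, 13.8 and 14.1 CPM (log2 fold change 2.27, standard error 0.59, adjusted p = 0.045). The 0 of *Egln3* and *Mxi1* in macrophage-like cells of MYC spinal 2 allows up to 38.9 CPM.

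*Slc16a3* came next, at 125.8, 72.0 and 408 CPM in neutrophil-like and 25.9, 71.2 and 120.1 CPM in macrophage-like cells, and did not pass the test (log2 fold change 1.97, standard error 0.56, adjusted p = 0.062). These calls were sensitive to the samples, as no member was called without MYC spinal 3 (adjusted p = 0.090 for *Ero1l*, 0.15 for *Egln3* and 0.21 for *Mxi1*). *Mxi1* was not called without MYC spinal 2 either (adjusted p = 0.052), *Egln3* did not pass the filter on low counts without eRT 2, and the macrophage-like sum of MYC spinal 2 held only 77121 UMIs. The direction also leaned on the scaling. Without library scaling factors the fold changes of all genes moved by a median of −0.79 on the log2 scale and the share of higher genes among those called fell from 77.3% to 23.9%, with *Ero1l* and *Egln3* still called higher. Positive fold changes were found in 23 of 28 members with these factors (median 0.63, against −0.05 over all genes tested). Without them they were found in 12 (median −0.18, against −0.83 over all genes tested). Of the other pathway genes, 21 could be tested, and the glucose transporter *Slc2a3* (log2 fold change 5.86) and *Hk3* (3.06) were higher in neutrophil-like cells. Of all 5408 genes tested, 5.94% were called higher.

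T-like cells were compared with macrophage-like cells in all 6 tumors, a comparison that shares its macrophage-like sums with the preceding one. Of 27 members tested, 1 was higher and 6 were lower in T-like cells, with 12.5% and 18.0% of the 7128 genes called higher and lower (30.5% in all). *Ddit4* stood at 13.1 to 175 CPM in T-like cells (median 78.6) and at 7.06 to 77.7 CPM in macrophage-like cells (median 12.6). It was higher in T-like cells in 6 of 6 tumors, although the ranges overlapped (log2 fold change 1.66, standard error 0.41, adjusted p = 0.0094). *Sap30* lay between 24.8 and 53.7 CPM in T-like cells and between 90.4 and 204 CPM in macrophage-like cells, without overlap (log2 fold change −1.80, standard error 0.26, adjusted p = 0.00034). *Slc16a3* stood at 12 to 65.4 CPM (median 34.7) against 25.9 to 149 CPM (median 91.3) and was lower in 6 of 6 (log2 fold change −1.63, standard error 0.35, adjusted p = 0.0045).

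The remaining members called between T-like and macrophage-like cells belonged to glycolysis. *Hk2* stood at 0 to 60.4 CPM (median 12.9) in T-like cells against 19.0 to 175 CPM (median 26.9), was lower in 4 tumors and had 0 UMIs in T-like cells of eRT 1, which allows up to 31.4 CPM (log2 fold change −1.93, adjusted p = 0.021). *Gapdh* (−0.57, adjusted p = 0.030), *Tpi1* (−0.89, adjusted p = 0.031) and *Pgam1* (−0.75, adjusted p = 0.035), which carry out later steps, were lower in 5, 5 and 4 of 6 tumors, and each of these 3 calls was lost when library scaling factors were left out (adjusted p = 0.16, 0.086 and 0.12). That change of scaling moved the fold changes of all genes by a median of 0.25. It also moved the share of higher genes among those called from 41.0% to 57.8%. Of the 27 members 5 were then called higher and 3 lower, and of the 7128 genes 1406 and 1027. Each of the 3 was also lost with several single tumors left out, *Gapdh* without MYC spinal 1 or any eRT (adjusted p 0.080 to 0.10), *Tpi1* without MYC spinal 1 or 2 or eRT 1 or 3 (0.060 to 0.10) and *Pgam1* without MYC spinal 1 or 2 or eRT 1 or 2 (0.062 to 0.11). The number of members called was 4 without MYC spinal 1 and 10 without MYC spinal 3. The share of all genes called in these settings is not given beside these counts. On the list of other pathway genes, 3 of 30 tested were higher in T-like cells, namely the nuclear receptor *Rora* (4.57), *Slc2a3* (2.37) and *Txnip*, an inhibitor of glucose uptake (1.07). The 7 lower ones included *Hk3* (−5.91), *Pfkfb4* (−3.89), *Slc2a6* (−3.79) and the collagen lysyl hydroxylase *Plod1* (−3.01). Over all 7128 genes tested, 12.5% were called higher and 18.0% lower.

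Monocyte-like cells had the highest median of 5 kinds of cell found in all 6 tumors for 20 of the 33 members, tumor cells for 6, T-like cells for 6 and macrophage-like cells for 1. Of the 10951 genes with at least the 90 UMIs of the least abundant member in these sums, 11.1% had their highest median in monocyte-like cells, against 60.6% of members. Against macrophage-like cells of the same tumor, 14 members were higher in monocyte-like cells in 6 of 6 tumors and 13 more in 5, and no member was lower in 5 or 6. Over the 10951 genes, 3.09% were higher in 6 of 6 tumors, 12% in 5 or 6 and 15.8% lower in 5 or 6. These counts rest on CPM without library scaling factors and are given without a test. Osteoclast-like cells, with sums in 4 tumors, were not among the 5 kinds. Their glycolysis genes summed to 7664 CPM in MYC spinal 3 and to 10360, 9847 and 6906 CPM in eRT 1, 2 and 3. Monocyte-like cells held 7003 CPM and 13420, 9199 and 4687 CPM in the same tumors. The osteoclast-like sums of eRT 2 and 3 came from 20 and 12 cells. *Slc16a3* had medians of 144 CPM in monocyte-like, 91.2 CPM in macrophage-like and 19.1 CPM in tumor cells. *Bnip3* had medians of 114 CPM in monocyte-like, 73.1 CPM in tumor and 20.8 CPM in T-like cells, and *Fam162a* of 342 CPM in tumor, 151 CPM in monocyte-like and 95.6 CPM in macrophage-like cells.

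**Figure D2:**
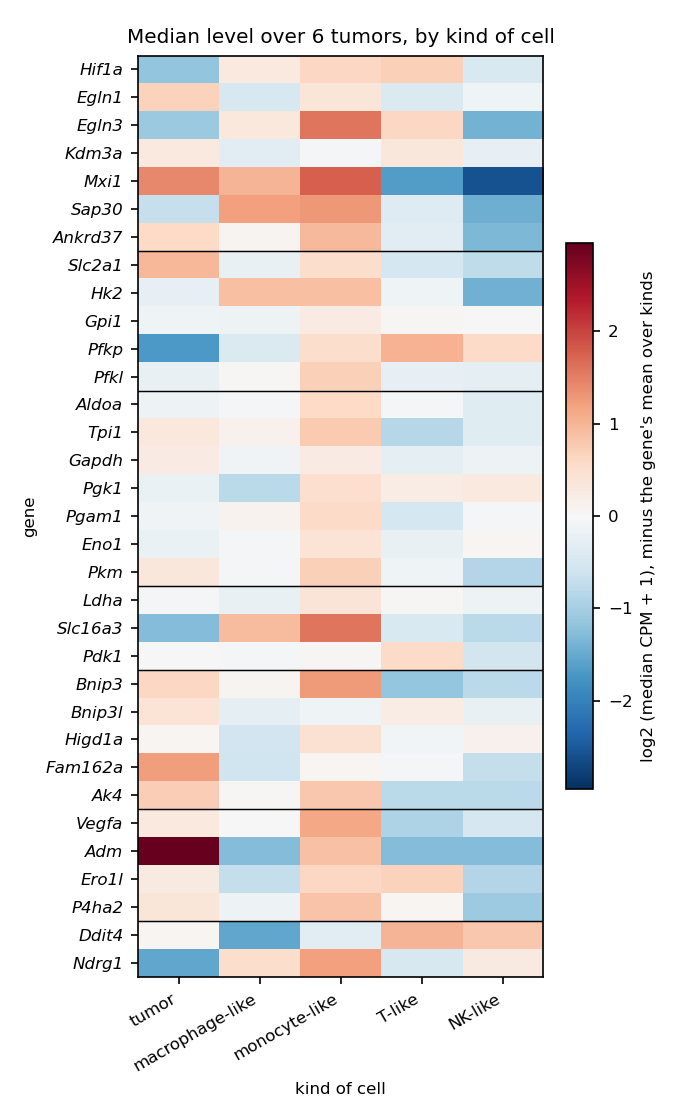
Rows are the 33 genes by role and columns the 5 kinds of cell present in all 6 tumors, and the color gives the log2 of the median CPM + 1 over 6 tumors minus the mean of that gene over the 5 kinds. The monocyte-like column is red, above the mean, for most genes, *Adm* and *Fam162a* are reddest in tumor cells, and the NK-like column is mostly blue.

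Part of the high level in monocyte-like cells lay in a cluster of 588 cells found in the eRT, 110 of them from eRT 1, 356 from eRT 2 and 122 from eRT 3. *Egln3* and *Vegfa* were among the 10 top genes of this cluster, although the members had been left out when clusters were made, so the values describe it. *Egln3* stood there at 169, 169 and 5.05 CPM in eRT 1, 2 and 3, and *Vegfa* at 40.8, 254 and 20.2 CPM. *Ero1l* stood at 438, 506 and 35.3 CPM and *Slc2a1* at 212, 351 and 30.3 CPM. Each of these 4 genes was thus lowest in eRT 3.

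The next comparison asked whether eRT and MYC spinal tumor cells differ in these genes. Of 5720 genes tested edgeR called 0 (0% of all genes, 204 at an unadjusted p under 0.05) and DESeq2 20, and of 24 members tested neither called any, with 1 member under an unadjusted p of 0.05. A missed threshold with 3 tumors a subtype does not show that the levels were alike. *Pgk1*, which makes the first ATP of glycolysis, had the smallest p. MYC spinal 1, 2 and 3 had 126.5, 22.1 and 146 CPM of it in tumor cells, and eRT 1, 2 and 3 had 38.5, 9.75 and 26.3 CPM (log2 fold change −1.94, standard error 0.60, adjusted p = 0.9996). The 2 highest values were MYC spinal, but MYC spinal 2, with 1 UMI, fell within the eRT range.

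*Slc16a3* followed in that order of p, at 3.56, 44.2 and 11.4 CPM in the MYC spinal tumors and 68.4, 21.1 and 17.1 CPM in the eRT (log2 fold change 1.85, standard error 0.81). *Gapdh* stood at 187, 309 and 592 CPM against 1314, 819 and 219.7 CPM (1.32, standard error 0.74), and *Bnip3l* at 141, 66.3 and 278 CPM against 434, 205 and 180.2 CPM (0.87, standard error 0.56). The subtypes overlapped in each of these genes, and for *Gapdh* the eRT 3 lay among the MYC spinal tumors. For *Slc16a3* the overlap rests on MYC spinal 2 alone, with 2 UMIs (95% Poisson interval 5.35 to 159.6 CPM). The adjusted p was 0.9996 for each of them.

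Macrophage-like cells gave a similar order of tumors for *Pgk1* and *Gapdh*. Of 8355 genes edgeR called 0 (0%, 109 at an unadjusted p under 0.05) and DESeq2 1, and of 30 members none was called, 2 being at an unadjusted p under 0.05. For *Pgk1* the macrophage-like cells of the MYC spinal tumors held 161, 0 and 44.5 CPM, while those from eRT held 23.0, 18.4 and 14.5 CPM (log2 fold change −2.04, standard error 0.78). *Gapdh* stood at 332, 285 and 370.3 CPM against 1173, 835 and 278 CPM (1.21, standard error 0.53). In tumor, macrophage-like, monocyte-like and T-like cells alike, *Gapdh* was highest in eRT 1 and second in eRT 2, so that these kinds shared the order of the leading tumors. *Ddit4* (1.94, standard error 0.89) and *Hk2* (1.46, standard error 0.89) came next. *Hk2* stood at 175 CPM in macrophage-like cells of eRT 2 and at 19.0 to 51.9 CPM in the other 5 tumors, and without eRT 2 its difference turned to −0.12.

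*Ldha*, which converts pyruvate to lactate, differed in direction between the subtypes by CPM, though narrowly in MYC spinal 3 and eRT 3. Its level in tumor cells was 3236, 442 and 1135 CPM in the MYC spinal tumors 1, 2 and 3, and eRT 1, 2 and 3 had 1372, 634 and 597 CPM. Immune-like cells had 862, 178 and 1076 CPM in the former and 1813, 1018 and 639 CPM in the latter. By these CPM tumor cells were thus higher in each MYC spinal tumor and lower in each eRT. The log2 ratios of MYC spinal 3 and eRT 3 were only 0.078 and −0.098. Library scaling factors, absent from these CPM, moved the fold changes of all genes by a median of 0.25, so these directions depend on the scaling. The interaction of subtype and kind of cell did not pass the test (−1.16, standard error 0.55, adjusted p = 1). The level of MYC spinal 1 (95% Poisson interval 3089 to 3389 CPM) stood far above that of the other 5 tumors, while that of MYC spinal 2 rested on 20 UMIs (270 to 682 CPM). Intervals cover counting error only. Across the 12053 genes of the interaction test edgeR called 0 (0%, 330 at an unadjusted p under 0.05) and DESeq2 1, and the 33 members included 0 calls. *Hk2* had the smallest p among them (interaction −2.49, standard error 0.99), followed by *Ldha*, *P4ha2*, a subunit of collagen prolyl hydroxylase (−2.62, standard error 1.36), and *Ndrg1* (−1.74, standard error 0.92).

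**Figure D3:**
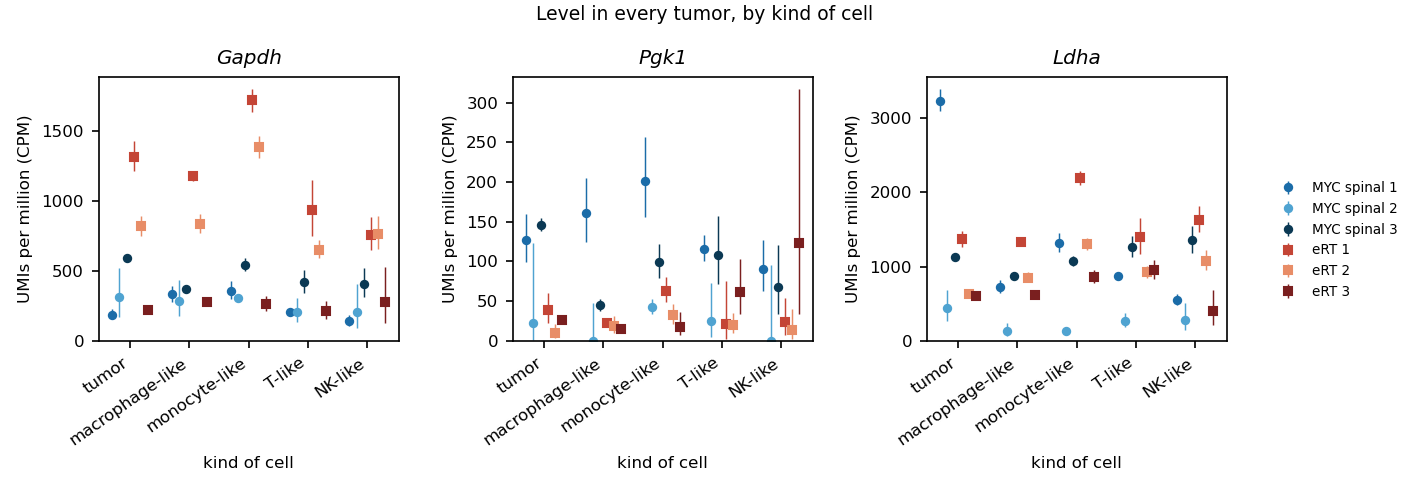
The y axes give CPM of *Gapdh*, *Pgk1* and *Ldha*, and the x axes the 5 kinds of cell found in every tumor. Each point is 1 tumor, circles for MYC spinal and squares for eRT, with its 95% Poisson interval. *Gapdh* is highest in eRT 1 or 2 in every kind, and *Ldha* stands at 3236 CPM in tumor cells of MYC spinal 1.

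In 4 of 5 tumors, pairs of members varied together from cell to cell more than other pairs of genes did. Tumor cells were thinned to 2000 UMIs each, which left 94 and 1462 cells in MYC spinal 1 and 3 and 63, 104 and 532 cells in eRT 1, 2 and 3. MYC spinal 2 kept 12 cells and was not used. Between pairs of members found in at least 5% of cells, the median Pearson correlation was 0.0013 and 0.20 in MYC spinal 1 and 3 and 0.13, 0.13 and 0.064 in eRT 1, 2 and 3. Over all pairs of genes found in at least 5% of cells it lay between −0.016 and 0.0076, and between genes of the respiratory chain between 0.015 and 0.043. The pairs of members exceeded the pairs of respiratory chain genes in 4 of 5 tumors and were below them in MYC spinal 1, where 68 of 136 pairs of members were positive. The counts were 246 of 253 pairs in MYC spinal 3 and 200 of 253, 93 of 105 and 94 of 105 in eRT 1, 2 and 3. Positive pairs were not counted over all genes, so these counts have no share beside them. The mean of the 5 medians was 0.11 ± 0.076 (SD, n = 5 tumors). These values describe cells of 1 library each, which share depth, dissociation and sequencing, and no p is attached to them. Single members were found in a median of 22.5% to 33.6% of thinned cells, so that correlations of single pairs are damped by sparse counts. The genes behind all pairs were not matched to the members in how often they were found. The members were also chosen with earlier results of these data known.

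**Figure D4:**
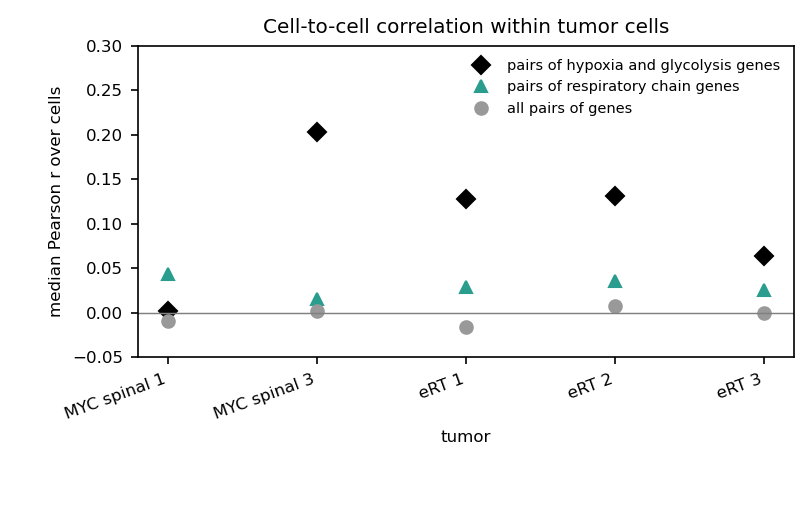
The y axis gives the median Pearson correlation over tumor cells thinned to 2000 UMIs, and the x axis the 5 tumors with at least 50 such cells. Diamonds are pairs of hypoxia and glycolysis genes, triangles pairs of respiratory chain genes and circles all pairs of genes, and the diamonds stand highest in MYC spinal 3, eRT 1, eRT 2 and eRT 3 but not in MYC spinal 1.

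The correlation of a member with the sum of the other members averaged 0.42 over 3 tumors for *Bnip3*, was 0.39 in 1 tumor for *Ndrg1* and averaged 0.37 over 2 tumors for *Ero1l*. Over all 5 tumors it averaged 0.37 for *Aldoa*, 0.36 for *Ldha*, 0.35 for *Eno1*, 0.35 for *Pgam1*, which converts phosphoglycerate, and 0.32 for *Fam162a*. *Sap30* and *Ddit4*, which differed between kinds of cell, averaged 0.067 and 0.066 over 4 tumors. Among 11 members detected in all 5 tumors there were 55 pairs, 23 of them positive in every tumor. No such count was made for other genes, so it is not known whether this number is high. *Ldha* with *Pgam1* had the highest mean, 0.27 (0.11 to 0.49), followed by *Higd1a*, a protein of the inner mitochondrial membrane, with *Pgam1* at 0.27 (0.049 to 0.45).

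Hypoxia response and glycolysis were then taken as separate sums with no gene in common. The response sum held 17 members (*Egln1*, *Egln3*, *Kdm3a*, *Mxi1*, *Sap30*, *Ankrd37*, *Bnip3*, *Bnip3l*, *Higd1a*, *Fam162a*, *Ak4*, *Vegfa*, *Adm*, *Ero1l*, *P4ha2*, *Ddit4* and *Ndrg1*) and the glycolysis sum 15, with *Hif1a* in neither. Their correlation over cells was 0.069 and 0.60 in MYC spinal 1 and 3 and 0.67, 0.42 and 0.25 in eRT 1, 2 and 3, a mean of 0.40 ± 0.25 (SD, n = 5 tumors). The 182 cells of MYC spinal 3 without any UMI of the response sum had a median of 10 UMIs of glycolysis genes, the 69 cells with 5 UMIs had a median of 15, and the 16 cells with 10 UMIs of the response sum had a median of 30. One cell of this tumor reached 56 response UMIs of its 2000, whereas the highest values elsewhere were 7 in MYC spinal 1, 17 in eRT 1, 12 in eRT 2 and 10 in eRT 3.

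**Figure D5:**
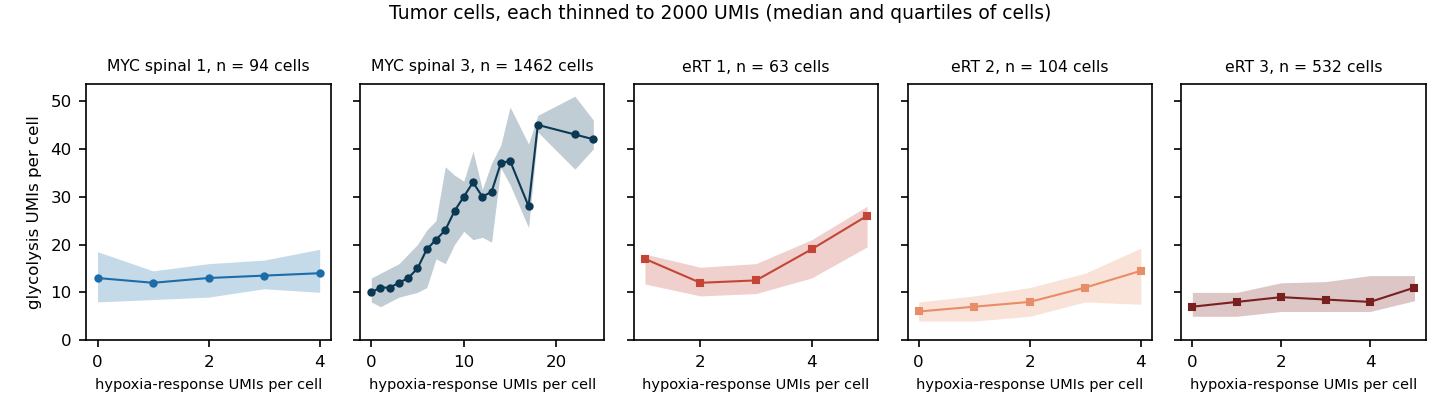
Each panel is 1 tumor, the x axis gives the UMIs of 17 hypoxia-response genes in a tumor cell thinned to 2000 UMIs and the y axis the UMIs of 15 glycolysis genes. Points are medians and bands quartiles over cells, for values of the x axis with at least 5 cells. The median goes from 10 at 0 response UMIs to 30 at 10 in MYC spinal 3 and stays between 12 and 14 in MYC spinal 1.

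Tumor cells were then divided at the tertiles of the response sum. Ties made the groups unequal in size and their limits unlike between tumors. In MYC spinal 1, 42 cells with at most 1 UMI were set against 52 with at least 2. In eRT 1, 26 cells with at most 3 UMIs were set against 21 with at least 6, so ratios are not strictly comparable between tumors. Those of the upper group held more glycolysis UMIs than those of the lower group in 5 of 5 tumors, by a ratio of 1.06 in MYC spinal 1 and of 1.30 to 2.30 in the other 4. The sum of the respiratory chain differed by a ratio of 0.88 to 1.07, that of dissociation stress genes by 0.70 in eRT 1 to 2.16 in eRT 2 and that of mitotic genes by 0.90 in MYC spinal 1 to 2.20 in eRT 1. Of single glycolysis genes, *Pgam1* (1.13 to 3.82), *Ldha* (1.18 to 2.92), *Eno1* (1.18 to 3.27), *Gapdh* (1.14 to 3.04) and *Tpi1* (1.2 to 1.94) were higher in the upper group in 5 of 5 tumors. In MYC spinal 3 *Slc2a1* stood at 83.0 CPM in the lower and 400.0 CPM in the upper group and *Pgk1* at 72.6 and 274 CPM, and *Hk2* had 4 UMIs in the 765 cells of the lower and 75 UMIs in the 500 cells of the upper group. Elsewhere *Slc2a1* had ratios of 0.98 in eRT 2 and 1.31 in eRT 3, and *Pgk1* of 0.68 in MYC spinal 1 and 0.57 in eRT 3. *Hif1a* had a ratio of 1.69 in MYC spinal 3 and of 0.59 in eRT 3.

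Other measures moved with the members in some tumors. A list of dissociation stress genes correlated with the sum of members at 0.39 in eRT 2 and between −0.071 and 0.085 in the other 4, and the UMIs of a cell before thinning at 0.36 in eRT 2 and 0.0063 to 0.17 in the others. The mitochondrial share of UMIs correlated between −0.23 and −0.053, and mitotic genes between −0.047 and 0.15. The sum of the respiratory chain correlated at 0.18 and −0.20 in MYC spinal 1 and 3 and at 0.33, −0.099 and 0.12 in eRT 1, 2 and 3. Their part in the result was not tested. Within the largest tumor cluster of each tumor alone, the mean correlation of the 2 sums was 0.37 and the mean of the median pairs 0.095.

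Tumor cell clusters differed in these genes within a tumor. In MYC spinal 3 the largest cluster of 1387 cells held 190 CPM of *Slc2a1*, and the clusters of 178 and 100 cells held 12.4 and 66.2 CPM. *Ndrg1* stood at 166, 52.1 and 22.1 CPM and *Ankrd37*, an ankyrin repeat protein and known HIF target, at 86.4, 0 and 33.9 CPM in the same clusters. In eRT 2 *Slc2a1* stood at 172 CPM in the cluster of 58 cells and at 15 CPM in that of 140 cells, and *Ldha* at 892 and 296 CPM. In eRT 3 the difference was smaller, at 60.4 CPM of *Slc2a1* in 550 cells and 40.8 CPM in 52 cells.

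Of 2290 genes outside the list that were detected in all 5 tumors, 10 had the highest mean correlation with the sum of members. These were *Mif* (0.24), *Actg1* (0.23), *Bsg*, the chaperone of lactate transporters (0.22), *H3f3b* (0.22), *Hmox1*, heme oxygenase (0.20), the collagen prolyl hydroxylase *P4ha1* (0.17), the lipid droplet gene *Hilpda* (0.17), *Myl6* (0.16), *Pum2* (0.16) and *Kars* (0.15). *Mif*, *Hmox1*, *P4ha1* and *Hilpda* stood on the list of other pathway genes. How many of the 2290 genes stood on that list was not counted, and the list was chosen with earlier results of these data known. For *Hilpda* the correlation was positive in each of the 5 tumors (0.073 to 0.27), whereas *Mif* was at −0.10 in MYC spinal 1 and at 0.17 to 0.51 in the other 4.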

How the data were processed

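Single cells of 6 tumors were dissociated with Accutase, sorted as living cells and sequenced on the 10x Chromium platform with 3′ chemistry. Tumors are numbered within a subtype in the order of their records. The authors deposited 1 table of counts (UMIs per gene and cell) for each tumor, made per the submitters' processing notes with Cell Ranger 2.0.2 and mm10. The deposited counts were used as they were, and 0 columns belonged to other samples. The members and all gene lists were chosen with earlier results of these data known.

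Cells were kept where 200 or more genes were found and mitochondrial UMIs did not exceed 25%. The cells of each subtype were integrated across tumors and clustered with Seurat 5.3.0 (log-normalized to 10000, 2000 variable genes, 30 dimensions, 20 neighbours, resolution 0.8). Members, other pathway genes and respiratory chain genes were left out of the variable genes. The lists of markers, mitotic genes and dissociation stress genes were not left out. Clusters were named "-like" where at least 3 markers of a kind were raised. Tumor clusters were those with less than 0.25 of the expected *Smarcb1* UMIs, with 10 or more expected, so the level of *Smarcb1* is no result. Scrublet (scanpy 1.11.5) marked 21 of 22163 cells and thus had not worked. No doublets were removed, and leaving out the 843 highest scores was an alternative.

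UMIs were summed per tumor and kind of cell (at least 10 cells) and tested with edgeR 4.0.16 (R 4.3.3; TMM, filterByExpr, quasi-likelihood test, Benjamini-Hochberg adjusted p under 0.05), with the tumor as a block where kinds of cell were compared. DESeq2 1.42.0, resolutions 0.4 and 1.6, *Smarcb1* limits 0.15 and 0.5, stricter filters on cells (500 genes, 10%), no filter on genes, no TMM factors, macrophage-like cells alone, no block and each tumor left out were alternatives. Full values were given for up to 8 called members a direction, or for the 4 of smallest p where fewer than 4 were called, and other pathway genes for up to 5 a direction. *Slc16a1*, *Pfkm* and *Eno3* were added to these for tumor against immune-like cells. CPM are UMIs of a sum scaled to 1000000, with exact 95% Poisson intervals. A count of 0 allows up to 3 UMIs in a sum, and depth per tumor is given with the results.

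The tests were tested on simulated data with known changes. Of changes of 2 on the log2 scale, the comparisons between kinds of cell recovered 64.5% (tumor), 44.5% (neutrophil-like) and 84% (T-like). The subtype comparisons recovered 0% in tumor cells, 5% in macrophage-like cells and 4.5% in the interaction, and so could call few changes of this size. Of changes of 5 they recovered 93.5%, 98% and 76%. For correlations, tumor cells were thinned to 2000 UMIs (alternative 1000), and tumors with at least 50 such cells and genes in at least 5% of them were used (Python 3.11.15, numpy 2.4.6, pandas 2.3.3, scipy 1.17.1). The lower and upper groups of cells were set at tertiles of the hypoxia-response sum. Promoters were those of RefSeq.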

Additional observations from a re-analysis of the deposited data

Results flagged for a closer look

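*Pdk1*, the kinase that inhibits pyruvate dehydrogenase, had values in opposite order in monocyte-like and macrophage-like cells of the subtypes. Monocyte-like cells held 24.4, 7.42 and 22.8 CPM in MYC spinal 1, 2 and 3, below the 29.2, 13 and 24.3 CPM of macrophage-like cells. In eRT 1, 2 and 3 they held 28.0, 26.0 and 22.5 CPM, above 20.2, 25.4 and 19.1 CPM. The mean log2 ratio was 0.59 higher in eRT than in MYC spinal tumors. The difference was not tested. The macrophage-like value of MYC spinal 2 rests on 1 UMI (95% Poisson interval 0.33 to 72.3 CPM), those of MYC spinal 1 rest on 8 UMIs in monocyte-like and 12 in macrophage-like cells, and in MYC spinal 3 and eRT 2 both kinds differed little, so that the directions lie within counting error.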

How the results depend on the processing

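Between tumor and immune-like cells *Slc16a3*, *Sap30*, *Fam162a* and *Hif1a* kept their calls in every alternative, and *Adm* in every one in which it was tested. The number of members called there was 5 to 8 with 1 tumor left out, the lowest number being that without eRT 2, and 5 without the tumor as a block. Between neutrophil-like and macrophage-like cells it was 0 to 3 with 1 tumor left out, 0 being the value without MYC spinal 3, and 0 without the block. Between T-like and macrophage-like cells it was 4 to 10 with 1 tumor left out, 12 when every gene with a UMI was tested and 2 without the block. Shares of all genes called do not stand beside these counts of members, apart from the calls over all genes given below. *Hk2* in macrophage-like cells turned to −0.12 (log2, eRT against MYC spinal) without eRT 2, the lowest value with 1 tumor left out, the highest being 1.86 without eRT 1. For these values the cause was not tested, beyond the smaller number of samples where a tumor was left out.

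The block pairs kinds of cell from the same animal, so the pairing comes from the design. Replicate numbers do not pair the subtypes, which come from different animals. Over all genes, calls without the block were 2107 in place of 3885 for tumor against immune-like cells, 34 in place of 415 for neutrophil-like and 1002 in place of 2176 for T-like against macrophage-like cells. The neutrophil-like comparison called 917 genes without TMM factors, 630 with every gene tested, 717 at resolution 0.4 and 89 without MYC spinal 3. DESeq2 called 20 genes between tumor cells of the subtypes where edgeR called 0, and the mouse model as a covariate also gave 0. Without TMM factors the fold changes of all genes moved by a median of −0.32 in that comparison, by −0.03 in macrophage-like cells and by −0.21 in the interaction.

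Of 456 alternative values for 31 named members, 404 kept their direction and side of the threshold, 47 were no longer called, 4 (all *Slc16a3* in neutrophil-like cells) became called and 1 reversed. The 456 include the comparisons between subtypes, where no member was called and few changes of 2 could be. Keeping the side of the threshold says little there, and all 47 lost calls fell in comparisons between kinds of cell. The mean over tumors of the median correlation between pairs ranged from 0.083 to 0.11 over 5 tumors and was 0.16 over the 3 tumors that kept enough cells once mitotic ones were left out. The mean correlation between the sums ranged from 0.31 to 0.39, against 0.11 and 0.40. The alternative of the largest tumor cluster alone was chosen after seeing the data. Depth limited the tumor cells of MYC spinal 2 most, with 45279 UMIs in 16 cells.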
